A study of Mus musculus with 4 samples.

Results

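Epithelial markers were read in fibroblasts, cells that should hold little of them: 9 keratin genes (Krt5, Krt7, Krt8, Krt10, Krt14, Krt15, Krt17, Krt18 and Krt19) and Epcam. They were chosen by name, and all of their exons in the deposited table were used. That gave 74 exons of 10 genes, out of 226463 exons of 22835 genes, and the table lists 23 further keratin genes. Over the whole length of their exons, Krt19 had the highest level of the 10 in each library. On its exon with the highest level, of 83 bp, it had 82.5 RPKM in wild-type mouse embryonic fibroblasts (MEFs). It had 7.23 RPKM in untreated Mitf knock-in MEFs and 52.3 RPKM in the same kind of cells after Dox. Over the whole length of its exons these levels were 34.1, 3.31 and 23.9 RPKM. RPKM is the number of reads per kb of exon, scaled to how many reads a library had aligned.

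The study asked whether the melanocyte regulator MITF can redirect other cells, and sequenced polyA RNA from 1 library per condition. MEF were wild-type cells at passage 3, and values were assigned to them by column name, which is uncertain. Dox (-) and Dox (+) were Mitf knock-in MEFs at passage 5, the first without Dox and the second with Dox for 6 days, which switches on the melanocyte isoform of Mitf. Both knock-in samples carry the M2rtTA transactivator at ROSA26 and the Dox-responsive Mitf at the collagen locus, and come from chimeric embryos made with 1 targeted embryonic stem cell clone, which also hold host cells of another genotype. The study describes an mCherry marker and puromycin resistance for purifying the transgenic cells from such cultures. Whole embryo bodies were dissociated to make MEFs, so the cultures may start with cells other than fibroblasts. MEF thus differed from the knock-in samples in genotype and passage together, and these cannot be told apart. Primary melanocytes (PMel) were not analysed here. With 1 library per condition no difference has a replicate check and no p-value is given. Intervals at the 95% level, and the floor of 3 reads below which a value is not separated from 0, cover counting error only.

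Depth was 45000000 reads in MEF and in Dox (-) and 44000000 in Dox (+), recovered from the RPKM values, of which 96.9% to 97.2% came out as whole reads within 0.02. Mitf, read as a check of the labels, had 1.52 RPKM in MEF, 30.8 in Dox (-) and 1544 in Dox (+). Of 12 mesenchymal genes, all 12 were above 10 RPKM in each library, and 3 collagen genes were called lower in Dox (+) than in Dox (-): Col1a1 (4958 RPKM in MEF, 12562 in Dox (-) and 2301 in Dox (+)), Col1a2 (9087, 17942 and 4089) and Col3a1 (3320, 10487 and 847). Of 8 genes of pluripotent cells none was above 10 RPKM, the highest being Dppa5a (5.34, 7.65 and 4.10) and Pou5f1 (6.93, 2.30 and 2.35). Of 8 macrophage genes, 8 were past the threshold for a difference in Dox (-) against both other libraries. Their summed level was 58.2 RPKM in MEF, 16952 in Dox (-) and 621 in Dox (+), and none of the 8 was at 0 in any library. The highest were Lyz2 (27.8, 10820 and 379 RPKM) and Fcer1g (4.94, 2337 and 80.1 RPKM), and Csf1r, Cd68, Laptm5, Aif1, Adgre1 and Tyrobp had 85.2 to 1795 RPKM in Dox (-) and 0.784 to 73.2 in Dox (+). The part of macrophages in the keratin values was not tested. In bulk RNA fewer cells of a type and less RNA per cell cannot be told apart.

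Keratins are the intermediate filament proteins of epithelia. A filament is built from pairs of 1 acidic type I keratin and 1 basic type II keratin, and the usual partners differ between epithelia. Simple, single-layered epithelia use Krt8 with Krt18, joined by Krt7 and Krt19. The basal layer of stratified epithelia such as epidermis uses Krt5 with Krt14 and Krt15, Krt10 belongs to the layers above it, and Krt17 to skin appendages and stressed epidermis. Epcam is an adhesion molecule on the surface of most simple epithelia. Type I genes other than Krt18 lie in a cluster on mouse chromosome 11, the type II genes and Krt18 on chromosome 15. Fibroblasts instead build their filaments mainly from vimentin, whose gene Vim had 24417 RPKM in MEF, 12302 in Dox (-) and 24345 in Dox (+) on its highest exon.

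Neighbouring type I keratins share stretches of coding sequence, which are shown here because reads of such genes can be hard to tell apart. The pairs below were taken from GENCODE M21 transcripts on mm10, 5′ to 3′ along the transcript. All of these genes are on the minus strand of chromosome 11. Capitals mark the longest run that each shares without a mismatch with Krt19, and 12 bases on either side are in lower case. The 35-base run shared with Krt17 and Krt42 crosses the junction of exons 5 and 6 of Krt19 (chr11:100141163-100141309, 30 of the 35 bases in exon 5), of Krt17 (chr11:100257649-100257772) and of Krt42 (chr11:100264694-100264958).
Krt19: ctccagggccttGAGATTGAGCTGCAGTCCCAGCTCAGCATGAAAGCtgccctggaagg
Krt17: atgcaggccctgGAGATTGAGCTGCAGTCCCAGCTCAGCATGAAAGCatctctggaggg
Krt42: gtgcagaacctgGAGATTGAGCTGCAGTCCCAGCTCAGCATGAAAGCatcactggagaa
The run shared with Krt14 is 32 bases long and lies in exon 3 of Krt19 (chr11:100142059-100142090) and in exon 3 of Krt14 (chr11:100204955-100204986).
Krt19: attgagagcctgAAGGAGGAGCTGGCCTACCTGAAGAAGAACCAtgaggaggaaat
Krt14: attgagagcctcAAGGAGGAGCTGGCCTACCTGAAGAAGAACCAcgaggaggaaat
The longest run shared with Krt16 had 30 bases, that with Krt15 had 26 and that with Krt9 had 12. Of the 3 members beside Krt19, Krt17 shared with it 30 different words of 25 bases, Krt14 shared 21 and Krt15 shared 4. Whether any read was assigned to the wrong gene was not tested, and the values of Krt14, Krt15 and Krt17 are given as uncertain for that reason.

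The level of a gene was taken as the highest RPKM of its exons in each library, as in the methods of the study, and a second level divided the reads of all its exons by their summed length. On the first scale, 4 of 10 members were above 10 RPKM in MEF, 1 in Dox (-) and 4 in Dox (+), where 52.0%, 56.0% and 53.9% of all genes were. On the second scale, only Krt19 passed 10 RPKM, in MEF and in Dox (+), and no member did in Dox (-). Krt19 led the members per summed length in each library, with 34.1 RPKM in MEF, 3.31 in Dox (-) and 23.9 in Dox (+). The members next to it were Krt14 with 9.45 RPKM and Krt17 with 3.87 in MEF, and the same pair with 7.66 and 3.15 RPKM in Dox (+). In Dox (-) the next were Krt10 with 2.48 RPKM, Krt7 with 2.35 and Krt18 with 1.68, close to each other and to Krt19.

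**Figure D1:**
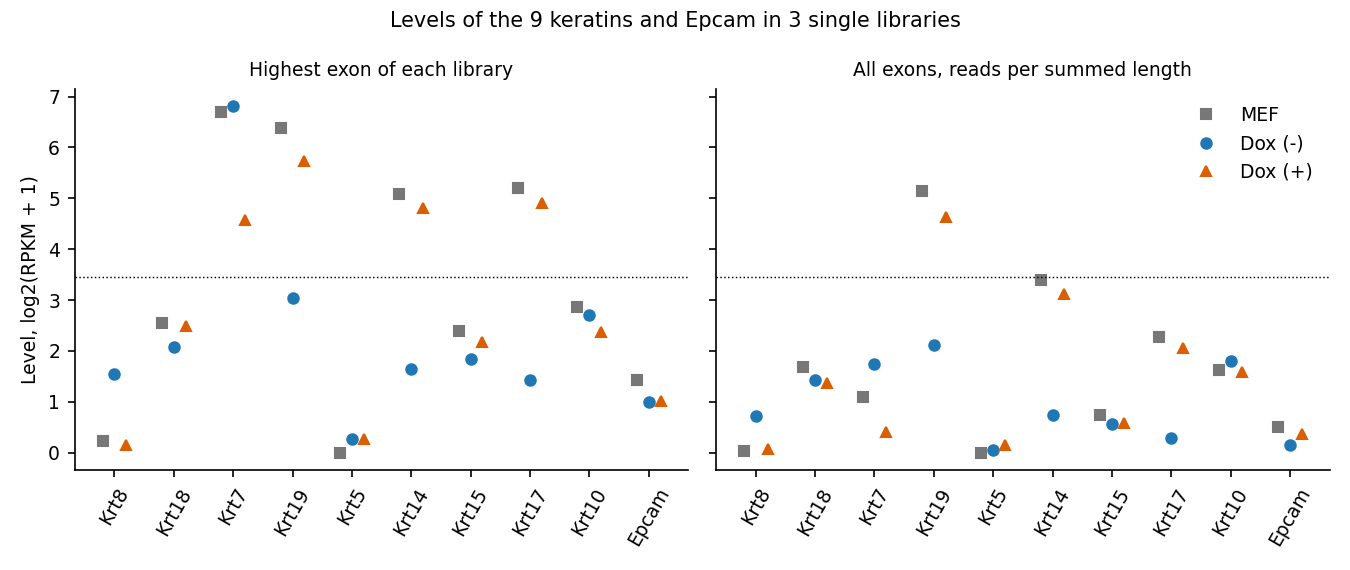
Level of each of the 10 members, as log2(RPKM + 1), in MEF (squares), Dox (-) (circles) and Dox (+) (triangles), on the highest exon (left) and as reads over the summed exon length (right). Each point is 1 library, so there are no error bars, and the dotted line is at 10 RPKM. On the right only Krt19 is above the line, in MEF and Dox (+).

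A gene was called different between a pair of libraries when its level passed 10 RPKM in 1 or both of them and the levels were more than 4-fold apart. From Dox (-) to Dox (+), 3 of 10 members were called higher (Krt14, Krt17 and Krt19) and 1 lower (Krt7). Over all 13307 genes above 10 RPKM in either library, 1.64% were called higher and 5.41% lower. Of the members, 4 were above 10 RPKM there, and these 4 were the ones called. Between MEF and Dox (-), 3 of 10 members were called lower in Dox (-), again Krt14, Krt17 and Krt19, against 1.21% of 13234 genes, and 0 were higher, against 8.26%. Between MEF and Dox (+), only Krt7 was called, lower in Dox (+), against 3.40% of 12941 genes, and 0 were higher, against 6.55%. In each of the 3 comparisons 4 members were above 10 RPKM in either library, the condition on which the percentages rest. These comparisons share libraries, so the same low values in Dox (-) enter the first and the second. The counts of Krt14 and Krt17 belong to 1 series described below, so their calls are not taken as separate. The median log2 fold change of the 10 members, on the log2(RPKM + 1) scale, was 0.18 from Dox (-) to Dox (+), -0.45 from MEF to Dox (-) and -0.29 from MEF to Dox (+). Over all 22835 genes, which like the 10 members were not filtered by level, it was 0.008, 0.06 and 0.12. Over all genes above the threshold it was 0.22, 0.02 and 0.28.

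Krt19, a type I keratin of simple epithelia that is made without a fixed type II partner, is on the minus strand of chr11:100140810-100148665. Its 6 listed exons had 308 to 527 reads in MEF, 26 to 49 in Dox (-) and 191 to 338 in Dox (+). MEF and Dox (+) were high and Dox (-) low on every exon, and the ranges of Dox (-) and of the other libraries did not overlap. On its second exon of 83 bp, the one with the highest level, it had 308 reads in MEF, 27 in Dox (-) and 191 in Dox (+). That made Dox (+) 7.23-fold higher than Dox (-) (interval 4.82 to 11.3), and MEF 11.4-fold higher than Dox (-) (7.69 to 17.6). MEF was 1.58-fold higher than Dox (+) (1.31 to 1.90), which is under the threshold of 4-fold. From exon to exon the excess of Dox (+) over Dox (-) ran from 6.28-fold to 9.20-fold and that of MEF over Dox (-) from 7.14-fold to 12.6-fold. The difference was thus present on all 6 listed exons. Reads rose less than exon length, as the 690 bp exon had 527 reads in MEF and a level of 17.0 RPKM. The short 83 bp exon thus set the level of the gene on the first scale.

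**Figure D2:**
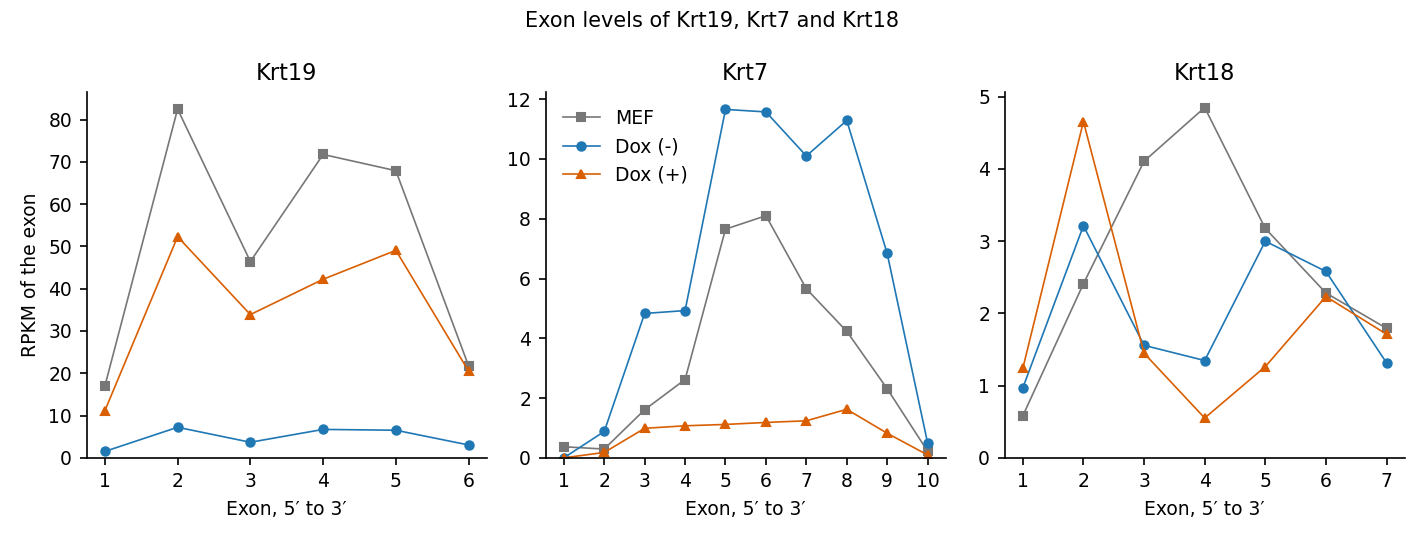
RPKM of each listed exon of at least 50 bp of Krt19, Krt7 and Krt18, in order from 5′ to 3′, with 1 line per library. The 3 panels have their own linear scales from 0. Krt19 lies low in Dox (-) on all 6 exons, Krt7 lies low in Dox (+), and the lines of Krt18 cross.

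Krt14, the basal type I keratin and partner of Krt5, is on the minus strand of chr11:100203162-100207548. Its highest level was 32.8 RPKM in MEF and 26.9 in Dox (+), both on an exon of 65 bp that had 0 reads in Dox (-). Dox (+) was at least 26.2-fold higher than Dox (-) there, against a floor of 3 reads. The highest level in Dox (-), 2.12 RPKM, was on another exon, of 126 bp. On the 6 exons over the floor in both libraries, Dox (+) was 6.56-fold to 13.5-fold higher. Its 8 exons had 84 to 96 reads in MEF, 0 to 12 in Dox (-) and 66 to 77 in Dox (+). These counts did not follow exon length. In MEF the 65 bp exon had 96 reads and the 636 bp exon had 84, and in Dox (+) they had 77 and 66. Because RPKM divides by length, the short exon set the level of the gene. Its partner Krt5, on chr15:101707070-101712898, had no more than 2 reads on any exon in Dox (-) or Dox (+) and 0 in MEF, where 3 reads on its 221 bp exon would be 0.302 RPKM.

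Krt17, the type I keratin of skin appendages, is on the minus strand of chr11:100256217-100261029 and had the same form. Its highest level was 35.9 RPKM in MEF, 1.71 in Dox (-) and 28.8 in Dox (+), all on an exon of 26 bp. Its 8 exons had 25 to 42 reads in MEF and 20 to 33 in Dox (+), and exactly 2 reads on each in Dox (-), under the floor. On its 126 bp exon Dox (+) had 33 reads against 2, a ratio of 16.9 with a counting interval of 4.32 to 145. On exons of at least 50 bp its highest level was 7.41 RPKM in MEF and 5.95 in Dox (+), under 10 RPKM in both.

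Read in order along the chromosome, the counts of Krt14 and Krt17 were parts of 1 descending series of steps that began beside Krt19 and was broken by 1 exon. Krt9, a keratin of palm and sole epidermis that lies between Krt19 and Krt14, had 96 reads in MEF, 0 in Dox (-) and 77 in Dox (+) on each of its 8 exons, which are 83 to 884 bp long. These are the counts of the adjoining end of Krt14. From there the reads per exon went down in MEF from 96 to 84 along Krt14, from 70 to 42 along Krt16 and from 42 to 25 along Krt17. In Dox (+) they went from 77 to 66, from 52 to 33 and from 33 to 20 along the same genes, with rises of no more than 2 reads between neighbouring exons. The exception was the single exon of Gm11598, on the plus strand between Krt14 and Krt16, with 329 reads in MEF, 265 in Dox (-) and 756 in Dox (+). The last exons of Krt42 had 9 reads in MEF and 7 in Dox (+). In Dox (-) Krt9 had 0 reads, and Krt14 had 5 to 12 on 6 exons and 0 on 2. From there a level run of 2 reads followed, which is under the floor. Gm11597, an annotated gene beside Krt14, Krt16 and Krt17 had 2 reads on each exon. Krt42 also had 2, and 0 on its last exons, where MEF and Dox (+) fell as well. At counts this low a descent in steps could not be seen or excluded. Krt15, on the other side of Krt19, also had level counts, with 5 or 8 reads on all exons but 1 in MEF, which had 7, and 4 or 6 on each in Dox (+).

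**Figure D3:**
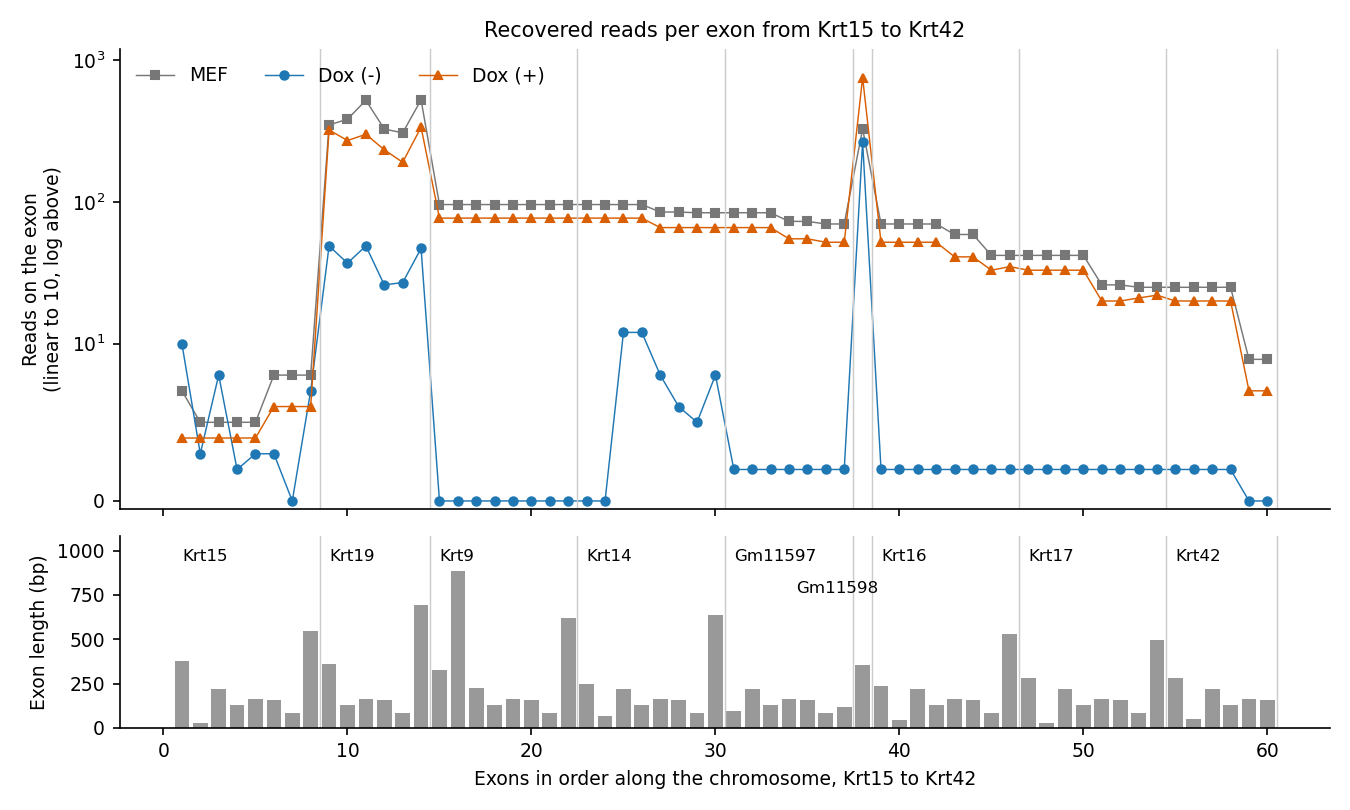
Reads recovered on each exon from Krt15 to Krt42, in order along the chromosome, for the 3 libraries (top, linear to 10 reads and logarithmic above), with the length of each exon in bp (bottom). Gm11597 and Gm11598 are annotated genes between Krt14 and Krt16. Right of Krt19 the MEF and Dox (+) counts step down from 96 and 77 reads in level runs, apart from the exon of Gm11598 with 329 and 756, while the exon lengths vary.

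The share of MEF signal found in Dox (+) was alike along the series. The ratio of the median reads per exon, Dox (+) over MEF, was 0.780 for Krt19, 0.802 for Krt9, 0.790 for Krt14, 0.721 for Krt16, 0.809 for Krt17 and 0.800 for Krt42. Counts as level as those of Krt9 and Krt14 were rare. Among 8441 genes with at least 6 exons of 50 bp or more and a median of at least 20 reads in MEF, 1.36% had a highest exon count within 1.5 times the lowest, and in Dox (+) it was 1.65% of 8682. Krt14 had a ratio of highest to lowest of 1.14 in MEF and 1.17 in Dox (+), and Krt9 of 1 in both. Krt16, with 1.67 and 1.58, and Krt17, with 1.68 and 1.65, were outside that limit and close to Krt19, with 1.71 and 1.77, as their counts stepped down within the gene. Whether the alignments counted on Krt9, Krt14, Krt16 and Krt17 were spliced reads with 1 end in Krt19 was not tested, since the alignments were not used here. The levels of Krt14 and Krt17 are therefore given as deposited, and without them 2 of 8 members were called between Dox (-) and Dox (+), Krt7 and Krt19.

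Krt7, the type II keratin of simple and glandular epithelia, is on the plus strand of chr15:101411043-101430313. Its highest level, 102 RPKM in MEF, 111 in Dox (-) and 22.7 in Dox (+), came from an annotated exon of 5 bp with 23, 25 and 5 reads. On exons of at least 50 bp its highest level was 8.10 RPKM in MEF, 11.7 in Dox (-) and 1.62 in Dox (+). It was highest in Dox (-) and lowest in Dox (+) on both scales, the reverse of Krt19 between these libraries. On its 96 bp exon it had 35 reads in MEF, 50 in Dox (-) and 5 in Dox (+). Dox (-) was 9.78-fold higher than Dox (+) there (interval 3.92 to 31.4), and MEF 6.84-fold higher than Dox (+) (2.67 to 22.4). Dox (-) was 1.43-fold higher than MEF there, with an interval of 0.909 to 2.27 that includes no difference. This was the smallest such excess among exons of at least 50 bp. Dox (-) was higher than MEF on all 9 of these over the floor in both, by up to 3.00-fold. Per summed length it was 2.09-fold higher. On the 6 exons of at least 50 bp over the floor in both, Dox (-) exceeded Dox (+) by 4.60-fold to 9.78-fold. Unlike Krt14, its counts in MEF ran from 1 read on the first exon to 42. The call against MEF was lost on exons of at least 50 bp, where no exon of MEF or Dox (+) reached 10 RPKM.

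Krt8 and Krt18, the first keratin pair of simple epithelia in the embryo, were both low. Krt8, on the minus strand of chr15:101996698-102004482, had at most 1 read on any counted exon in MEF and in Dox (+). In Dox (-) it had 3 to 11 reads on its 4 counted exons, with 1.94 RPKM on the highest. On that exon of 126 bp Dox (-) had 11 reads and Dox (+) 0, which made it at least 3.59-fold higher against a floor of 3 reads. Against the 1 read in MEF the ratio was 11, with a counting interval of 1.60 to 473. Krt8 was thus seen in Dox (-), at a level under 2 RPKM, and was not detectable at this depth in the others.

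Krt18, on the plus strand of chr15:102028180-102032027, was present in all 3 libraries, with 4.85 RPKM in MEF on a 165 bp exon, and 3.21 in Dox (-) and 4.65 in Dox (+) on an 83 bp exon. Its counted exons had 9 to 36 reads in MEF, 10 to 26 in Dox (-) and 4 to 22 in Dox (+), and these ranges overlapped. Exons disagreed on the direction. On the 83 bp exon Dox (+) had 17 reads and Dox (-) 12, a 1.45-fold difference with an interval of 0.652 to 3.32, while 4 of 5 counted exons were lower in Dox (+). The listed exons without whole reads were higher in Dox (+) than in Dox (-). The 495 bp exon had 1.24 RPKM against 0.968, and the 187 bp exon 1.71 against 1.31. Krt18 therefore outnumbered its partner Krt8 per summed length in each library, with 2.21 RPKM against 0.0255 in MEF, 1.68 against 0.652 in Dox (-) and 1.60 against 0.0473 in Dox (+).

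Krt10, the type I keratin of the suprabasal epidermis, is on the minus strand of chr11:99385254-99389364, apart from the step series. It had 6.27 RPKM in MEF, 5.57 in Dox (-) and 4.21 in Dox (+), all on its 383 bp exon at the 3′ end, with 108, 96 and 71 reads. The excess of MEF over Dox (+) was 1.49-fold (interval 1.09 to 2.04) and that of Dox (-) over Dox (+) was 1.32-fold (0.963 to 1.82). Over all exons together the levels were 2.07, 2.48 and 1.99 RPKM, so the order of MEF and Dox (-) depended on the exons used. Krt15, the second basal type I keratin, on chr11:100131758-100135928, had 4.27 RPKM in MEF, 2.56 in Dox (-) and 3.50 in Dox (+) on a 26 bp exon with 5, 3 and 4 reads. No exon of Krt15 passed 10 reads in any library.

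Epcam, on the plus strand of chr17:87635979-87651129, was near the floor in each library. Its highest level was 1.68 RPKM in MEF, 0.988 in Dox (-) and 1.01 in Dox (+), on exons with 5, 2 and 2 reads. Its longest exon, of 679 bp, had 13 reads in MEF, 4 in Dox (-) and 5 in Dox (+), where 3 reads would be 0.0982 RPKM in MEF. The exon of 204 bp had 7 reads in Dox (+) and 1 in each of the other libraries. No library was thus high in Epcam, and its exons gave no common order of the libraries.

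All 16 type I genes listed summed to 69.0 RPKM per length in MEF, 15.1 in Dox (-) and 53.8 in Dox (+), and Krt19 supplied 49.5% of that in MEF and 44.5% in Dox (+). These sums include the genes of the step series, in MEF Krt14 (9.45 RPKM), Krt16 (6.84), Krt9 (6.61), Krt17 (3.87) and Krt42 (2.63). Whether 1 alignment entered the sum through several of these genes was not tested, so the type I sums and the shares of Krt19 are uncertain. The 16 type II genes summed to 12.1, 4.97 and 4.74 RPKM. Of the MEF sum, 51.1% came from 6 keratins near each other on chromosome 15 (Krt81, Krt83, Krt84, Krt86, Krt87 and Krt88), which together had 6.18 RPKM in MEF, 0.0716 in Dox (-) and 0 in Dox (+). This order was neither that of Krt19 nor that of Krt7. In MEF Krt88 had 14 reads on each counted exon, and Krt86 and Krt83 had 6 on each, level counts like those of Krt9. Whether 1 alignment entered the type II sum through several of these 6 genes was not tested either, so the MEF sum and its 51.1% share are uncertain. In Dox (+) 83.9% of the type II sum was Krt80, which is made in many epithelia, and in Dox (-) 47.3% was Krt7. Of the non-members, the 3 with the highest level on any exon were Krt16 (33.1 RPKM in MEF, 0.946 in Dox (-) and 25.1 in Dox (+)), Krt9 (25.7, 0 and 21.1) and Krt80 (14.3, 3.64 and 14.2). The first pair lies in the step series beside Krt19, and Krt80 differed less than 4-fold between libraries on this scale. Like Krt19, Krt80 was lowest in Dox (-), and this held on each of its 7 counted exons. Dox (+) exceeded Dox (-) on these by 2.73-fold to 6.39-fold. Per summed length Krt80 had 4.73 RPKM in MEF, 1.13 in Dox (-) and 3.98 in Dox (+). Unlike Krt19, it was higher in Dox (+) than in MEF on 6 of the 7 exons. Krt20, a type I keratin of gut and urothelium, had 0.353 RPKM in MEF, 14.0 in Dox (-) and 2.19 in Dox (+), and was called higher in Dox (-) than in either other library. Like Krt8 it was highest in Dox (-).

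Most of the genes of epithelial junctions, epithelial transcription and splicing factors, and membrane proteases stayed under 10 RPKM in each library. Of 16 genes of epithelial junctions, 3 were above 10 RPKM in some library and 0 were called between Dox (-) and Dox (+). The highest were Cgn, encoding the tight junction protein cingulin (35.9 RPKM in MEF, 18.4 in Dox (-) and 14.9 in Dox (+)), and Cdh1, encoding E-cadherin (21.7, 1.08 and 0.697). Cdh1 was called lower than MEF in both knock-in libraries, so unlike Krt19 it was not high in Dox (+). Crb3 (2.72, 4.99 and 17.2 RPKM) was highest in Dox (+) and called higher there than in MEF. Of 11 epithelial transcription and splicing factors found, 0 were called in any comparison, and Esrp1, a splicing factor of epithelia, was at 0 in each library. The highest were Klf5 (27.4, 8.15 and 22.4 RPKM) and Esrp2 (15.8, 7.31 and 6.87 RPKM). Klf5 was lowest in Dox (-), as Krt19 was, and Esrp2 was not. Trp63, the regulator of basal epidermis, had 6.16 RPKM in MEF, 1.78 in Dox (-) and 0.288 in Dox (+). Of 4 membrane proteases of epithelia and their inhibitors, 0 were called between Dox (-) and Dox (+), and the highest were Spint2 (19.9, 34.8 and 76.9 RPKM) and St14 (0.847, 6.33 and 1.20 RPKM).

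Genes whose proteins help anchor keratin filaments were read next, with other lists of epidermis and filament genes. Of 11 desmosome and plakin genes found, 1 was called higher in Dox (+) than in Dox (-). This was Pkp3, encoding a plakophilin, with 0.345 RPKM in MEF, 0.505 in Dox (-) and 13.9 in Dox (+). The highest were Jup, encoding plakoglobin (349, 438 and 321 RPKM), and Perp (129, 40.8 and 51.3 RPKM). Dsp, encoding desmoplakin, to which keratins attach, had 0.717, 1.69 and 0.541 RPKM. Of 8 hemidesmosome and basement membrane genes, 0 were called between Dox (-) and Dox (+), and Plec (110, 594 and 891 RPKM) and Dst (174, 222 and 225 RPKM) were highest. Of 7 genes of the cornified layer found, 0 were called between these libraries, with Sbsn (58.3, 67.6 and 93.8 RPKM) and Ivl (0.321, 13.9 and 11.4 RPKM) highest. Of 10 other intermediate filament genes, 1 was called, Gfap, lower in Dox (+), with 0.176, 50.0 and 4.84 RPKM, and the highest were Vim and Lmna (834, 899 and 1935 RPKM).

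**Figure D4:**
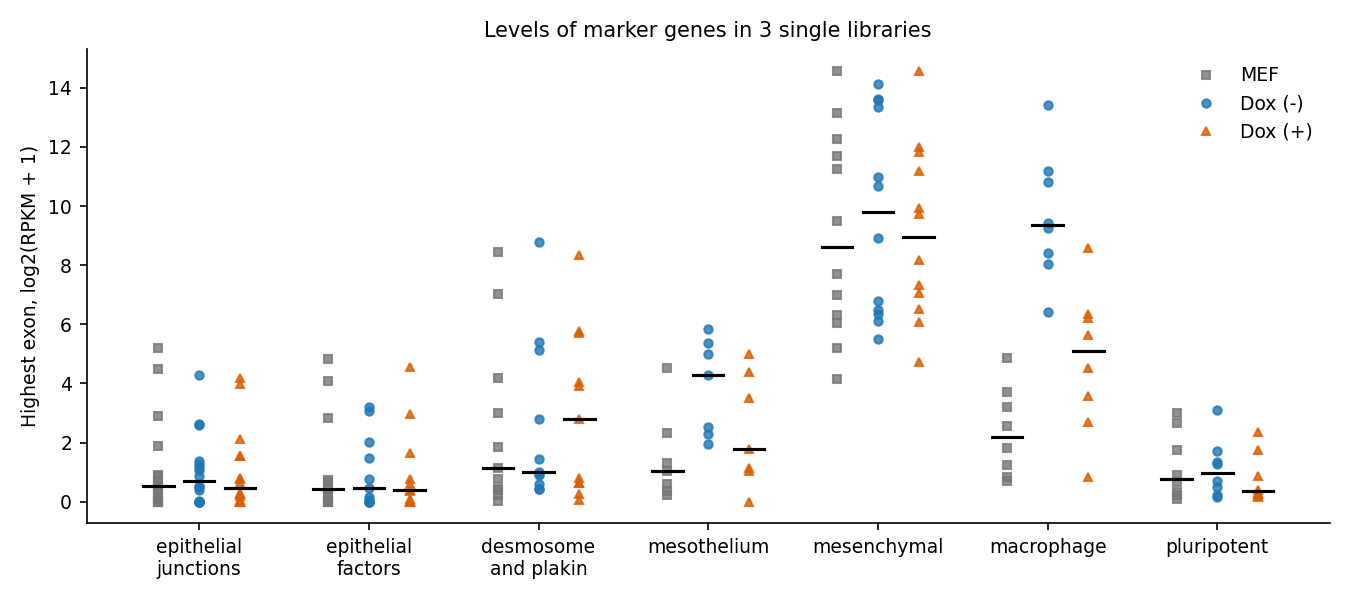
Highest exon of each gene, as log2(RPKM + 1), for 7 lists of marker genes in MEF, Dox (-) and Dox (+). Each point is 1 gene in 1 library and black bars are list medians. Mesenchymal genes are high in each library, macrophage and mesothelial genes are highest in Dox (-), and epithelial junction and factor genes lie mostly near 0.

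Mesothelium, the simple lining of body cavities, makes Krt7, Krt8, Krt18 and Krt19 as well, and its other markers were read beside them. Of 7 mesothelial genes found, 3 were called higher in Dox (-) than in MEF, and 1 lower in Dox (+) than in Dox (-). Their summed level was 29.7 RPKM in MEF, 157 in Dox (-) and 66.3 in Dox (+), and only Muc16 in Dox (+) was at 0. The highest were Msln, encoding mesothelin (22.2, 56.1 and 20.1 RPKM), and Upk1b (3.97, 40.3 and 10.3 RPKM), and the gene called between the knock-in libraries was Upk3b (1.48, 18.3 and 1.21 RPKM). Krt7 and Krt8 were, like these 3 genes, highest in Dox (-), and Krt19 was lowest there. Wt1, a transcription factor of mesothelium, had 0.517 RPKM in MEF and 31.0 and 31.2 in the knock-in libraries. The part of mesothelial cells in the Krt7 and Krt8 values was not tested. Of 4 Merkel cell genes found, only Krt20 was called between Dox (-) and Dox (+), and the highest were Piezo2 (15.9, 387 and 101 RPKM) and Krt20 itself. Of 8 melanocyte genes, 3 were called higher in Dox (+), Mlana (0.585, 0.390 and 133 RPKM), Tyrp1 (0, 0.520 and 110 RPKM) and Trpm1 (0.609, 0.254 and 10.3 RPKM).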

How the data were processed

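The authors prepared polyA libraries with a TruSeq kit, aligned reads with TopHat2 2.0.10 to mm10, used bedtools to count the reads on Ensembl exons, and deposited the counts as RPKM. Whether spliced alignments were split at introns, and whether strand was used, is not given in the sources used here. By default, bedtools coverage counts an alignment over its whole span. Columns were assigned to libraries by name. The number left unused was 1, so PMel was not analysed and its planned comparisons were not run. The column named MEF was taken as the wild-type MEFs, because the knock-in columns carry the name MITF. Supplementary data of the study print other values under the name MEF. This assignment, and each comparison with MEF, is therefore uncertain.

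Exons were matched to GENCODE M21 (228132 of 234718), and genes of protein coding, pseudogene and lincRNA biotypes were kept. Reads were recovered with a whole-number divisor per library between 20 and 80. The level of a gene was its highest exon in each library. Genes above 10 RPKM in at least 1 of 2 libraries and more than 4-fold apart were called different. Log2 fold changes used a pseudocount of 1, which understates changes of low genes. Intervals were exact Poisson or conditional binomial. No p-values were computed, and no normalization was added.

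The members and gene lists were chosen with earlier results of these data known. By rule, the text names all members, the 3 highest other keratins, and in each other list the 2 highest genes and those called between Dox (+) and Dox (-). Krt42, Gm11597, Gm11598, Krt81, Krt83, Krt84, Krt86 to Krt88, Dsp, Crb3, Trp63, Esrp1, Wt1 and Muc16 were added after their values were seen. Exons of at least 50 bp and the calls without Krt14 and Krt17 were added likewise. The steps were tested on simulated data. Python 3.11.15, pandas 2.3.3, NumPy 2.4.6, SciPy 1.17.1 and matplotlib 3.10.9 were used.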

Additional observations from a re-analysis of the deposited data

How the results depend on the processing

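The number of members called between Dox (+) and Dox (-) was 4. It was 2 with a threshold of 30 RPKM, 2 with a fold threshold of 8, 1 with reads summed over exons and 2 without Krt14 and Krt17. Between Dox (-) and MEF it was 3, and 1 both with reads summed over exons and without Krt14 and Krt17. Between Dox (+) and MEF it was 1, and 0 with a fold threshold of 8, a pseudocount of 5 RPKM, reads summed over exons or exons of at least 50 bp. A level over all exons cannot exceed that of the highest exon, so fewer members reach 10 RPKM. Of 120 alternative log2 fold changes of members, 0 changed the sign of a called difference and 5 changed the sign of one that was not called. With reads summed over exons these were Krt8 between Dox (+) and MEF (-0.09 to 0.03), Krt10 between Dox (-) and MEF (-0.15 to 0.18) and Krt18 between Dox (+) and Dox (-) (0.42 to -0.04), and with rescaling Krt5 (0.0055 to -0.03) and Epcam (0.02 to -0.09) between Dox (+) and Dox (-). By more than the 95% counting error of 1 exon, 2 moved, Krt7 to -0.69 and Krt10 to -0.04 between Dox (+) and MEF with reads summed over exons. Rescaling the libraries by the median ratio of genes above the threshold shifted Dox (+) by 0.22 and MEF by -0.02 on the log2 scale relative to Dox (-), and kept each count of calls within 1.5 times. Depth limits Krt5, Krt8, Krt15 and Epcam, whose exons held few reads. No paired analysis was possible because each condition had 1 library and no test was run.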
